A study of Mus musculus with 4 samples.

Results

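Among the cells sorted as donor CD4 T cells were barcodes that carried the transcripts of developing neutrophils. A cell was counted as neutrophil-lineage when at least 3 of the 5 genes Ngp, Camp, Lcn2, Ltf and Retnlg had a unique molecular identifier (UMI, 1 counted RNA molecule) and S100a8 plus S100a9 made up at least 1% of its UMIs. By this rule 205 of 34918 kept cells were members. There were 130 of 19020 in replicate 1, or 0.683% with an exact binomial 95% interval of 0.571% to 0.811%, and 75 of 15898 in replicate 2, or 0.472% (0.371% to 0.591%). These intervals, and those below, cover counting error only. Of these members 92 and 10 also held high levels of Ccl5, a T cell transcript, by a line described below. The others were 38 of 19020 and 65 of 15898 kept cells. The values of the 7 rule genes chose the members and are given as description.

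The sample labels describe TS1 Tg CD4 T cells on a BALB/c RAG2-/- background, sorted from mice with graft-versus-host disease (GVHD) 4 weeks after transplantation. TS1 Tg denotes a T cell receptor transgene, and RAG2 loss prevents rearrangement of other antigen receptor genes. Spleen, colon, skin, small intestinal epithelium and small intestinal lamina propria were hashed and pooled into 1 expression library for each of 2 replicates. The tissue of a cell was not analysed here, and the origin of the replicates (the same or different animals) is not given in the sources used here. There is no control group, so every comparison is within or between these libraries.

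Neutrophils are made in the bone marrow from dividing precursors, which fill successive sets of granules as they mature. Primary granule proteins such as myeloperoxidase and elastase are made first, in promyelocytes. Secondary granule proteins, whose genes depend on the transcription factor C/EBP epsilon, follow in myelocytes and metamyelocytes, and gelatinase granule proteins and the receptors of circulating neutrophils come last. Division ends at about the transition from myelocyte to metamyelocyte.

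The promoters of 4 granule genes are shown because all 4 genes set the membership rule and their levels are described below. Ngp, Camp and Ltf encode secondary granule proteins, and Retnlg encodes a resistin-like protein of maturing neutrophils. Capitals mark matches to the C/EBP core TTNNGNAA, searched on both strands. The sequences are RefSeq's on GRCm38.p6, 5′ to 3′ on the gene's strand, upstream of the gene: Ngp at chr9:110419558-110419746 (plus strand), Camp at chr9:109849618-109849706 (minus strand), Ltf at chr9:111019042-111019270 (plus strand) and Retnlg at chr16:48872358-48872607 (plus strand).
Ngp: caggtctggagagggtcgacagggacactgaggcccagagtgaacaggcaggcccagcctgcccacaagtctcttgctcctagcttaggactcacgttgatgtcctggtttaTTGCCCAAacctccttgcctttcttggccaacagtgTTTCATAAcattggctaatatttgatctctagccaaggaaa
Camp: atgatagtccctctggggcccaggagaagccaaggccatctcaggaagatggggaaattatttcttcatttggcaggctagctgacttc
Ltf: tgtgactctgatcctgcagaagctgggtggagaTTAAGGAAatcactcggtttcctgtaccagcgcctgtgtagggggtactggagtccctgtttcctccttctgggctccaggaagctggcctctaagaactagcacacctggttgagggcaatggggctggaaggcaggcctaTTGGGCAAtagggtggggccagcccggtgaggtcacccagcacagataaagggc
Retnlg: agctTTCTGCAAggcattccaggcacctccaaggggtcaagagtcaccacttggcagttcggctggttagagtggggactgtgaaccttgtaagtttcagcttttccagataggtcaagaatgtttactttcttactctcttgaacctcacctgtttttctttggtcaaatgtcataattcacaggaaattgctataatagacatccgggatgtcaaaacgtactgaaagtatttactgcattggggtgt
The stretches of Ngp, Camp, Ltf and Retnlg are 189, 89, 229 and 250 bases long. Those under 250 bases were cut at the GENCODE gene start. The printed Ngp and Ltf stretches hold 2 matches each, that of Retnlg holds 1 and that of Camp holds 0. Over 250 bases upstream of the RefSeq start, Ngp holds 3 matches, Camp 0, Ltf 2 and Retnlg 1. Over 250 bases upstream, 12104 of 32851 mouse promoters, or 36.8%, hold at least 1 match, so a match describes the letters and not a bound site.

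The label fitted the libraries unequally. In replicate 1 the members had a median of 1791.5 UMIs (1008 to 43034), against 2692 for the other kept cells, and 28 of 130 had 5000 UMIs or more. In replicate 2 the median was 10770 UMIs (1130 to 143066), against 3694, and 58 of 75 had 5000 or more. The line at 5000 UMIs was chosen with the data in view, and cells above it are called deep. S100a8 plus S100a9, the subunits of calprotectin, made up a median of 9.73% of UMIs in replicate 1 (1.34% to 46.2%) and 34.5% in replicate 2 (1.02% to 46.8%). Among deep members the medians were 36.7% and 35.3%, and among the shallower ones 8.26% and 21.1%. The libraries thus differed in the shallow cells and were close in the deep ones.

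Many shallow members of replicate 1 also carried T cell transcripts at the level of T cells. Ccl5, a chemokine gene of effector T cells, stood at 10000 CPM (UMIs per 1000000 UMIs of the cell) or more in 92 of 130 members of replicate 1 and 10 of 75 of replicate 2, a line chosen after the values were seen. A further count shows how blurred the line is, since 32 and 13 members lay between 5000 and 20000 CPM. In replicate 1 the 92 cells had a median of 1519 UMIs, 6.95% S100a8 plus S100a9 and 1.11% of UMIs from 12 T cell genes. The 38 others had 7994.5 UMIs, 34.7% and 0.116%. The T cell genes took 1.39% of UMIs in the T cells of the same library, defined as other kept cells with at least 2 of Cd3d, Cd3e, Cd3g and Trac. At least 2 of those 4 genes were also detected in 118 of 130 and 69 of 75 members. The 10 Ccl5-high members of replicate 2 had 15.7% S100a8 plus S100a9 and 0.789% from T cell genes. Of the Ccl5-high members 3 and 7 were deep, among them the deepest of replicate 2, with 143066 UMIs, 1.05% S100a8 plus S100a9, 2615 Ccl5 and 252 Cd3e UMIs. The name neutrophil-lineage therefore describes the Ccl5-low members, while the 92 and 10 Ccl5-high barcodes held RNA of both cell types. No doublet caller was run, and the part of doublets or of free RNA in these barcodes was not tested.

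**Figure D1:**
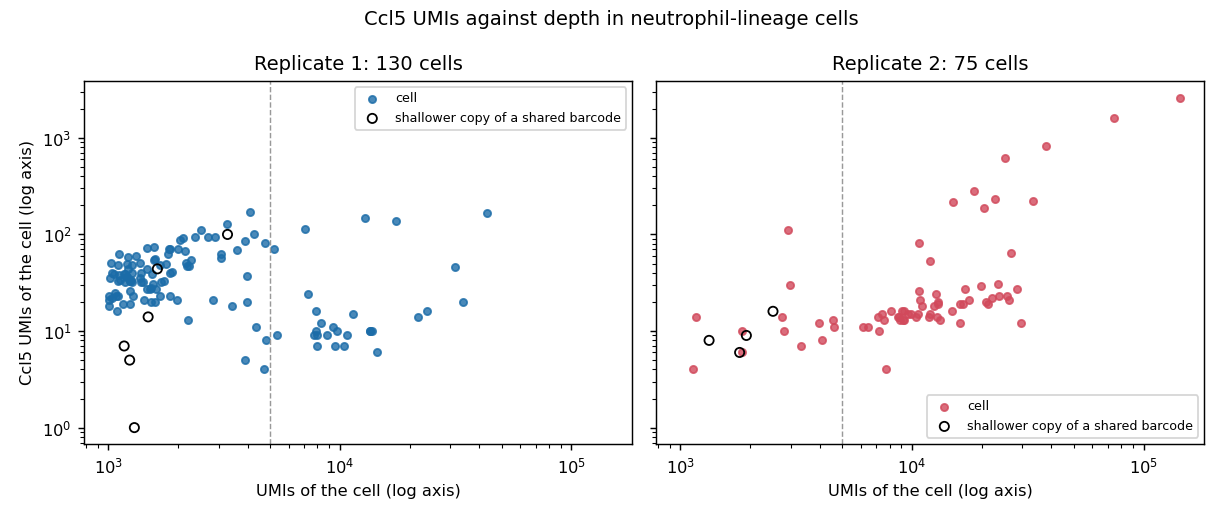
Ccl5 UMIs (y, log axis) against total UMIs (x, log axis) in the 130 and 75 members, Ccl5-high ones included, 1 point a cell. The 5000 UMI line is dashed and shallower copies of shared barcodes are outlined. The 102 shallow cells of replicate 1 hold a median of 37.5 Ccl5 UMIs, above the median of 10.5 in its 28 deep cells.

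The libraries shared barcodes beyond what random drawing gives. Of the kept barcodes 599 were in both libraries, against 44.5 expected, and in 513 of them 1 copy held at least 8 times the UMIs of the other. Among members 10 barcodes were in both, so 205 members were 195 distinct barcodes. Their UMI ratios ran from 17.1 to 23.3, with the shallower copy in replicate 1 for 6 and in replicate 2 for 4. Without shallower copies 124 and 71 members remained, and mean Camp was 22546 in place of 23199 CPM in replicate 1 and 38645 in place of 39452 CPM in replicate 2. Mean Elane, a rare gene, fell from 24.5 to 0.752 CPM in replicate 1.

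**Figure D2:**
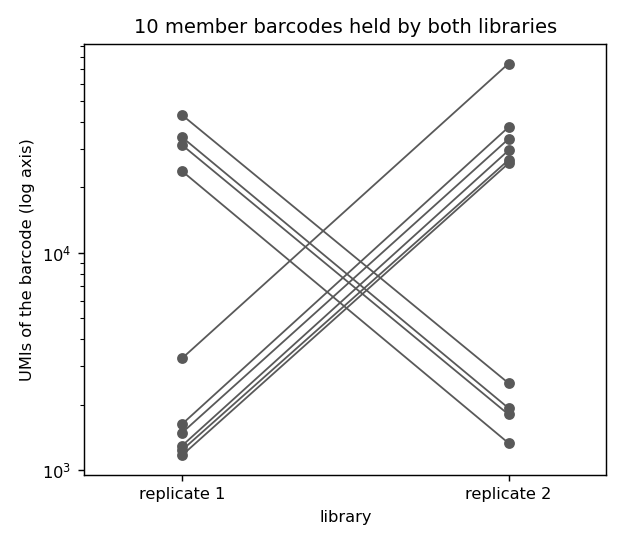
UMIs (y, log axis) of the 10 member barcodes found in both libraries, each line joining the copies of 1 barcode. In 6 the deeper copy lies in replicate 2 and in 4 in replicate 1, with ratios of 17.1 to 23.3.

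Few cells lay right beside the 1% line on S100 share, though low shares were common among members of replicate 1. Shares under 5% were held by 36 of 130 members of replicate 1 and 6 of 75 of replicate 2. The members with the lowest S100a8 plus S100a9 share held 1.34%, 1.5% and 1.55% of UMIs in replicate 1 and 1.02%, 1.05% and 1.66% in replicate 2. The nearest cells outside that had 3 rule genes held 0.65% in replicate 1 and 0.808% in replicate 2. In all, 5 and 64 cells had 3 rule genes but under 1% S100a8 plus S100a9, and 35 and 12 had the reverse.

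Secondary granule genes were far above their level in other cells, though below the alarmin and protease inhibitor list, which includes S100a8 and S100a9 and took a median of 10% and 36.1% of UMIs. In the shallow members of replicate 1 the T effector list, at 5.1%, was also above the secondary granule list, at 3.69%. The 12 listed genes together took a median of 4.28% of UMIs in replicate 1 and 14.9% in replicate 2, and 15.6% and 15.2% in the deep members, against a summed share of 0.0179% and 0.0259% in all other kept cells. Ngp, Camp, Ltf and Lcn2 among the 12 are rule genes, so this excess was set in part by the choice of members. All 12 had a UMI in each library. Each UMI is 1 tag at the 3′ end of a transcript, so levels of different genes are compared without a length scale. Ngp, the neutrophilic granule protein, averaged 46700 and 54233 CPM in the deep members of replicates 1 and 2, and Camp, the precursor of the antimicrobial peptide CRAMP, averaged 46374 and 42866 CPM. Lcn2, the iron-siderophore binding lipocalin, stood at 14281 and 15398 CPM, and Ltf, lactoferrin, at 9098 and 10394 CPM. S100a8 and S100a9 were the most abundant rule genes, at 153943 and 187477 CPM in replicate 1 and 159211 and 173481 CPM in replicate 2. Over all members the replicate 1 means were lower, for example 23199 against 39452 CPM for Camp, and 102 of its 130 members were shallow against 17 of 75.

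Genes outside the rule marked the same lineage, in fewer members of replicate 1. Of 16 listed neutrophil markers outside the rule, 10 and 14 had a UMI in at least 10% of members, and 3 and 8 in at least 50%. Mpo and Ctsg had none in replicate 1. The 16 took a median of 0.266% and 0.937% of UMIs, and 0.829% and 0.948% in deep members. Their summed share in other kept cells was 0.00979% and 0.00801%. The largest folds of members over the other kept cells, beyond the rule genes, included Wfdc21 at log2 8.31 and 8.09, Ifitm6 at 7.22 and 6.89, Chil3 at 6.87 and 7.11, and Ly6g, the surface antigen used to identify mouse neutrophils, at 6.37 and 6.3 (pseudocount 10 CPM, no test, since the members were chosen on the same cells). Ly6g averaged 482 and 1280 CPM, with a UMI in 64 of 130 and 70 of 75 members, against 0.367 and 2.29 CPM in the other kept cells. Cybb, the catalytic subunit of the phagocyte oxidase, averaged 433 and 1162 CPM, and Cd177, a neutrophil surface glycoprotein, 338 and 693 CPM. Cebpe, which encodes C/EBP epsilon, had a UMI in 45 of 130 and 60 of 75 members, and in 21 of 28 and 54 of 58 deep members.

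**Figure D3:**
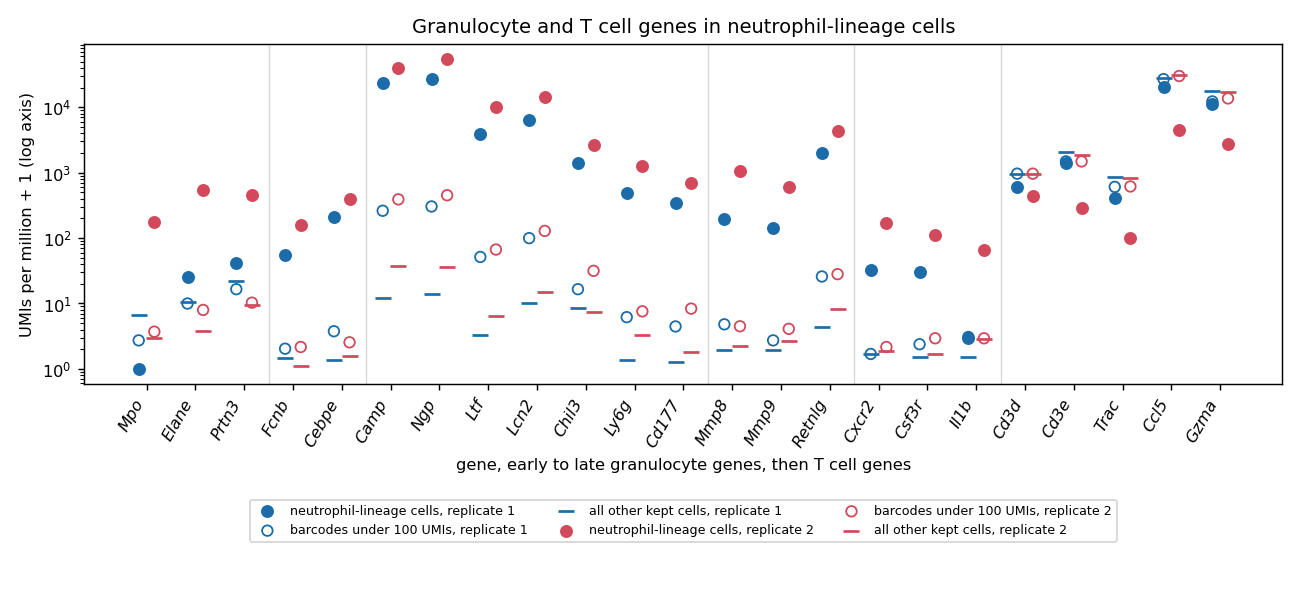
Level (y, CPM plus 1, log axis) of granulocyte genes in order of maturation and of T cell genes (x), in members, other cells and barcodes under 100 UMIs of each library. Camp averages 23199 and 39452 CPM in members against 11.2 and 35.8 CPM in the other kept cells.

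Markers of other lineages were near 0 in the members. Of 8 basophil genes 1 and 2 had any UMI, of 4 mast cell genes 1 and 1, of 8 eosinophil genes 1 and 1 (Ear2), of 6 B cell genes 1 and 2, and of 5 epithelial genes 2 and 4. Of 7 erythroid genes 3 and 4 had a UMI and of 7 dendritic genes 4 and 4. Of 11 monocyte or macrophage genes 7 and 5 did, and Adgre1, Mrc1 and F13a1 had none in either library. The median summed level was 0% of UMIs in both libraries for these lists, except 0.0181% for the monocyte or macrophage list in replicate 2, and the highest in any member was 0.237%, for that list in replicate 1.

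The oxidase, interferon response, transcription factor and cytokine lists took small shares of UMIs. The 6 phagocyte oxidase genes took a median of 0.606% and 0.649% of UMIs in deep members, against a summed 0.248% and 0.246% in other kept cells, which also use Rac2. Interferon response genes took 0.392% and 0.31%, against 0.165% and 0.135%. The 9 transcription factor genes took 0.15% and 0.16%, against 0.0396% and 0.0405%. Of 7 cytokine and chemokine genes 5 had a UMI in each library, and Cxcl3 and Il1a had none. Their deep medians, 0.014% and 0.00941%, were below the summed 0.0205% and 0.02% of other kept cells. Olfm4, which marks a subset of mouse neutrophils, was found in 48 of 130 and 15 of 75 members, and in 11 of 28 and 12 of 58 deep members. Anxa1 was detected in all 28 and all 58 deep members, at 7608 and 6801 CPM.

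Mitochondrial and Malat1 shares of the members lay below those of the other cells. The mitochondrial share had a median of 1.56% and 0.848% of UMIs, against 2.73% and 2.53%, and Malat1, a nuclear RNA, 1.32% and 0.619%, against 2.85% and 3.17%.

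Primary granule genes were rare and sat in few cells. Mpo, myeloperoxidase, had 0 UMIs in the 130 members of replicate 1 and 100 UMIs in 3 of 75 cells of replicate 2. Elane, neutrophil elastase, had 7 UMIs in 3 cells and 408 UMIs in 8 cells. Prtn3, proteinase 3, had 17 UMIs in 6 cells and 365 UMIs in 16 cells. In replicate 1, 4 of the Elane and 4 of the Prtn3 UMIs lay in a barcode of 1295 UMIs. That barcode is the shallower copy of 1 of 29600 UMIs in replicate 2, which is counted there too. Of the 1036 UMIs of 5 primary granule genes in replicate 2, a single barcode of 7581 UMIs held 562, or 54.2%. That cell had 247 Elane, 96 Mpo and 181 Prtn3 UMIs, with 14 Camp and 0 Retnlg UMIs and 11.6% S100a8 plus S100a9. The cells with the next most primary granule UMIs in that library, 114 and 94, held 1726 and 1259 Camp UMIs.

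Over all members, late genes were found in few cells of replicate 1 and in more of replicate 2. Shallow members numbered 102 of 130 and 17 of 75. Mmp8, neutrophil collagenase, had a UMI in 15 of 130 and 40 of 75 members, and in 12 of 28 and 32 of 58 deep members. Mmp9, gelatinase B, was detected in 24 and 48 members. Cxcr2, the receptor that guides mature neutrophils out of the marrow, was detected in 17 and 36, and Csf3r, the G-CSF receptor, in 15 and 40. Il1b, a cytokine gene of activated mature neutrophils, had 1 UMI in replicate 1 and 19 UMIs in 5 cells of replicate 2. The 18 late surface and signalling genes, Cxcr2, Csf3r and Il1b among them, took a median of 0.051% and 0.167% of UMIs over all members. In deep members they took 0.207% and 0.17%, so the order of the libraries did not hold there. The gelatinase granule list took a median of 0.986% and 0.9% of UMIs in deep members. That list includes the rule gene Retnlg, and Anxa1, which was found in every deep member. Its share therefore does not measure Mmp8 and Mmp9 alone. After each cell was thinned to 1000 UMIs, Mmp8 was left in 11 and 27 members and Cxcr2 in 7 and 7.

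Within the deep members, some granule genes had different levels in Retnlg-high and Retnlg-low cells and others did not hold their order. Retnlg, Camp, Lcn2 and Ltf are rule genes, so their values helped to choose the members. The Retnlg line of 1000 CPM was chosen after seeing the data, so the values are description without a test. Retnlg was at 1000 CPM or more in 10 of 28 and 20 of 58 deep members. All 3 Ccl5-high deep members of replicate 1 and most of the 7 of replicate 2 were Retnlg-low. Among them were the barcodes of 143066 and 74322 UMIs, with 252 and 150 Cd3e UMIs. The median Camp level was 20919 CPM in Retnlg-high against 64202 CPM in Retnlg-low cells of replicate 1, and 24503 against 54491 CPM in replicate 2. Chil3, a chitinase-like protein of immature granulocytes, had medians of 338 against 3011 and 911 against 2256 CPM. Mmp8 went the other way, with medians of 1392 against 0 and 1795 against 0 CPM. Lcn2 had medians of 13198 against 14279 and 13730 against 15789 CPM. The order of Ltf reversed between the libraries, at 7885 against 11434 CPM and 11748 against 10565 CPM, as did that of Cd177, at 399 against 702 and 920 against 566 CPM.

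Fcnb and cycling genes were detected more often in Retnlg-low cells in both libraries, given as counts without a test. Fcnb, which encodes ficolin B, was detected in 1 of 10 against 12 of 18 cells and in 2 of 20 against 20 of 38. Mki67, the proliferation antigen, was detected in 0 of 10 against 5 of 18 and in 2 of 20 against 20 of 38. Summed cycling genes reached 1000 CPM in 0 of 10 against 6 of 18 and in 1 of 20 against 18 of 38. Cxcr2 had the opposite order, with 9 of 10 against 5 of 18 and 15 of 20 against 14 of 38. These counts were not thinned, and deep cells ran from 5189 to 43034 UMIs in replicate 1 and 6120 to 143066 in replicate 2. Some Ccl5-high members were among the Retnlg-low cells that reached 1000 CPM of cycling genes. The part of depth and of Ccl5-high members in the counts was not tested. Across the 28 deep cells of replicate 1, Camp and Retnlg had a Pearson r of -0.67 and a Spearman rho of -0.61. In the 58 deep cells of replicate 2 the values were -0.38 and -0.28. Camp and Ngp had r of 0.76 and 0.67, and rho of 0.68 and 0.59. Camp, Ngp and Retnlg are rule genes, so these correlations are description only.

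**Figure D4:**
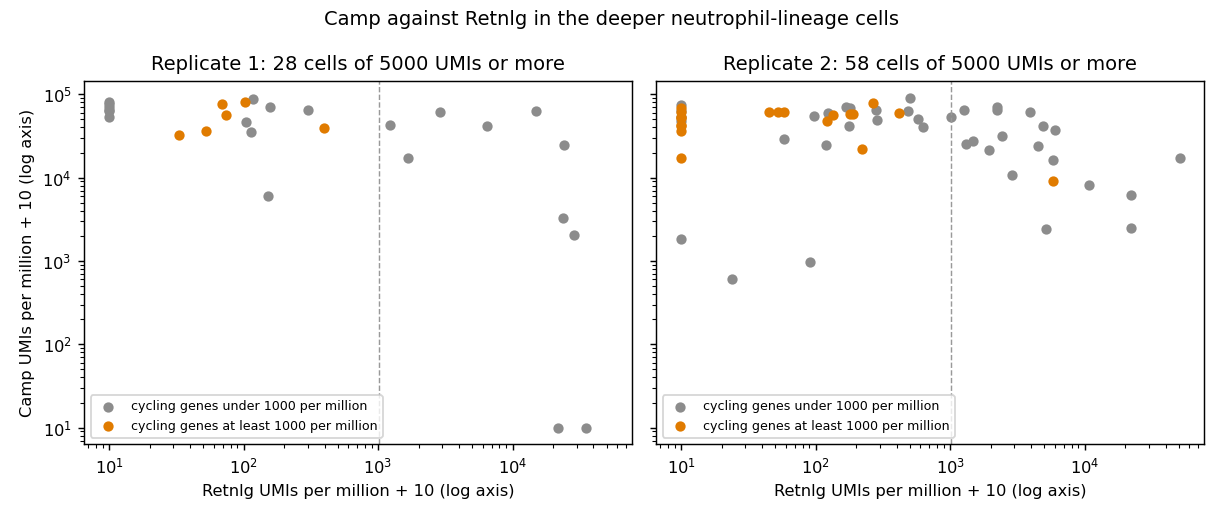
Camp (y) against Retnlg (x), both in CPM plus 10 on log axes, in the 28 and 58 members of 5000 UMIs or more, with cells of at least 1000 CPM of cycling genes in orange. Cycling cells lie to the left of the dashed Retnlg line, except 1 in replicate 2. Ccl5-high members are included.

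Cells with a cycling gene were then compared with those without, outside the genes that set the rule. A cell was called cycling with at least 1 UMI of Mki67, Top2a, Birc5, Ube2c, Cdk1, Ccna2, Cdca8, Pclaf or Rrm2 after thinning, and counts were summed by class and library. The 4 sums leave 1 residual degree of freedom in edgeR's quasi-likelihood test, with the library as block. In the deep members, thinned to 5000 UMIs (14 and 14 cells in replicate 1, 37 and 21 in replicate 2), 107 of 841 genes were higher in cycling cells, or 12.7%, and 63 were lower, or 7.49%, at a Benjamini-Hochberg adjusted p under 0.05. Ccl5-high cells numbered 2 and 1 in the classes of replicate 1 and 5 and 2 in those of replicate 2. Other scaling, a fit without the block, DESeq2 and another thinning seed were run only over all members, not on the deep cells.

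The measured proliferation genes that did not define the classes were higher in deep cycling cells. Tyms, Mcm5 and Pcna, also on the list, did not pass the filter on low counts. Of the 4 measured, 4 rose: Stmn1, a microtubule regulator, by log2 4.30 ± 0.48 (SE, adjusted p 0.00114, edgeR), Tubb5, a tubulin, by 2.63 ± 0.34, H2afz, a histone variant, by 1.83 ± 0.16, and Hmgb2, a chromatin protein, by 0.75 ± 0.13. H2afz stood at 2286 against 707 CPM in replicate 1 and 2728 against 708 CPM in replicate 2. The median over all 841 genes was -0.0388.

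Granule genes moved both ways in the same cells, and 0 primary granule genes passed the filter on low counts. Fcnb rose by log2 2.20 ± 0.52 (edgeR adjusted p 0.021) and Chil3 by 0.44 ± 0.13 (0.0487). Of 5 gelatinase granule genes measured 3 fell: Mmp8 by 1.54 ± 0.17, Mmp9 by 1.41 ± 0.18 and Anxa1, annexin A1, by 0.88 ± 0.11. Mmp8 stood at 302 against 989 CPM in replicate 1 and 525 against 1441 CPM in replicate 2. Ly6g fell by 1.14 ± 0.14, Ifitm3, a membrane protein that restricts viruses, by 1.32 ± 0.13, and Fpr2, a formyl peptide receptor, by 1.44 ± 0.33. Of 7 secondary granule genes measured outside the rule 2 rose and 2 fell, the latter Pglyrp1 by 0.74 ± 0.12 and Hp by 0.67 ± 0.15. Cebpe had a log2 difference of -0.04 ± 0.20 (adjusted p 0.934).

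T cell transcripts moved with the cycling class. Of 5 T effector genes measured in deep members 3 rose, Gzma by log2 1.57 ± 0.18, Gzmb by 1.19 ± 0.18 and Nkg7 by 1.15 ± 0.22, and of 6 T cell genes 2 rose, Cd3e by 1.49 ± 0.32 and Trbc2 by 0.60 ± 0.17. Their part in the cycling result was not tested. Ccl5 had a difference of 0.25 ± 0.12 (edgeR adjusted p 0.184).

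Over all members thinned to 1000 UMIs the same split called 10 of 471 genes higher, or 2.12%, and 39 lower, or 8.28%. There, the cycling class of replicate 1 was largely Ccl5-high, in 77 of 91 cells against 15 of 39 without a cycling UMI, while in replicate 2 it was 5 of 30 against 5 of 45. Mmp8 fell by 4.62 ± 0.51 (edgeR adjusted p 3.4e-16) and Stmn1 rose by 1.88 ± 0.57 (0.0139). Of 3 alarmin and protease inhibitor genes measured 3 fell, among them S100a11 by 1.83 ± 0.32, and of 4 transcription factor genes 2 fell, Spi1, which encodes PU.1, by 1.98 ± 0.63 and Cebpb by 1.83 ± 0.42. Gm5483 was at 0 CPM in cycling cells of both libraries, against 1525 and 603 CPM without, so no fold is given. Other named genes that fell were BC100530 by 4.04, Pira2 by 3.60, Hdc, histidine decarboxylase, by 2.75, Grina by 2.70, S100a6 by 2.53, Mmp9 by 2.50, Mcemp1 by 2.40 and Pirb by 2.38. Those that rose were Smc4, a condensin subunit, by 2.54, Ube2s by 1.77, Anp32b by 1.41, Calm2 by 1.34, H2afz by 1.27, Ppia by 1.23, Hmgn2 by 1.22, Ptma by 1.20 and Rpsa by 0.88. BC100530 and Gm5483 belong to the stefin A cluster of similar genes, and Pira2 and Pirb are also similar, so counts of each are uncertain. Without the Ccl5-high cells 27 of 237 genes were called, 23 of them also called over all members, and Mmp8 stayed past the threshold at -3.57 (adjusted p 0.0178). RLE scaling and a fit without the library block each called 0 genes in edgeR, with 76 and 50 genes at an unadjusted p under 0.05, and DESeq2 called 3.

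**Figure D5:**
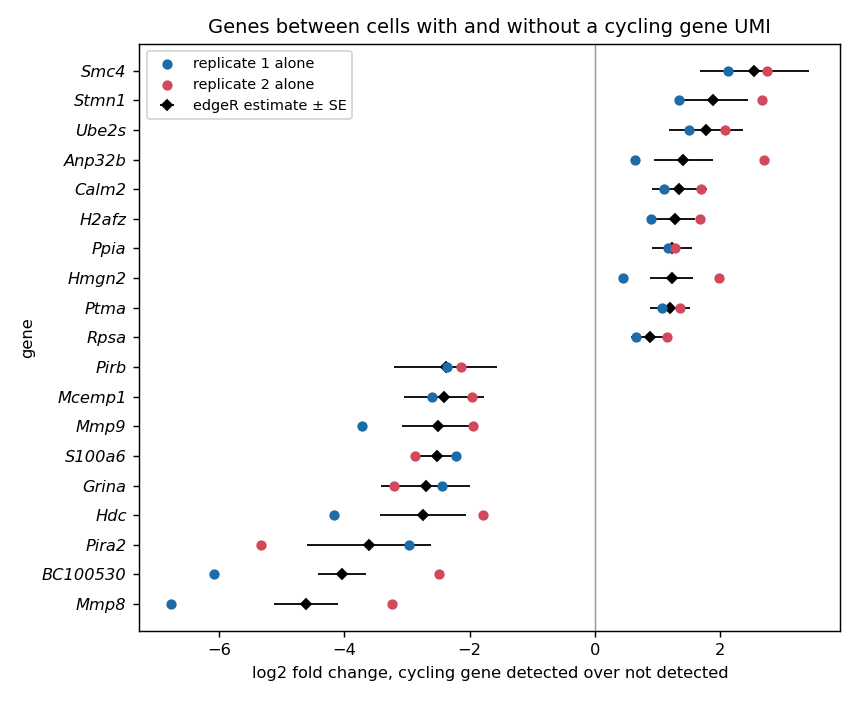
Log2 fold change (x) of the named genes (y) between members with and without a cycling gene UMI, all members thinned to 1000 UMIs, with the edgeR estimate and SE in black and each library in color. Mmp8 lies at -4.62 and Stmn1 at 1.88. The genes were named only where the libraries had the classes in the same order.

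Cells with a UMI of Csf3r, Cxcr2, Il1b or Mxd1 were compared with the rest in the same way. Over all members 34 of 396 genes were higher, or 8.59%, and 21 lower, or 5.3%. Ccl6, a chemokine gene of myeloid cells, rose by log2 3.55 ± 0.67 (edgeR adjusted p 9.8e-04) and Mmp8 by 2.36 ± 0.49 (0.00176), while Pclaf, a replication factor, fell by 3.69 ± 0.99 (0.015) and Gzmb by 1.98 ± 0.37. Ccl5-high cells made up 3 of 21 cells with a late gene and 89 of 109 without in replicate 1, and 1 of 24 and 9 of 51 in replicate 2. Stfa2l1 and Stfa2, stefin A genes with the same uncertainty, rose by 5.21 and 4.51. Msrb1, a selenoprotein, rose by 2.26 and Tubb5 fell by 1.94. The calls fell to 0 without shallower copies of shared barcodes (edgeR, 88 genes at an unadjusted p under 0.05; DESeq2 called 1 over all members), and to 21 without Ccl5-high cells, of which 14 were also called over all members.

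T cell transcripts in the members were set beside free RNA, taken as the sum of all barcodes under 100 UMIs. These were 1148804 and 1275986 barcodes holding 3.24% and 2.39% of all UMIs. Ccl5 was in every member, with a median of 33 UMIs (1 to 172) in replicate 1 and 16 (4 to 2615) in replicate 2. Summed over members, Ccl5 stood at 0.348 of its free level in replicate 1 (95% Poisson interval 0.339 to 0.358) and 0.239 in replicate 2 (0.234 to 0.245). Cd3e, a subunit of the T cell receptor complex, stood at 0.447 (0.403 to 0.494) and 0.365 (0.336 to 0.395). The free levels were 26963 and 30096 CPM for Ccl5 and 1489 and 1485 CPM for Cd3e.

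The ratio of the sums differed between shallow and deep members, most in replicate 1. In replicate 1, Ccl5 stood at 0.858 of the free level in shallow and 0.0906 in deep members, and Cd3e at 1.03 and 0.151. In replicate 2, Ccl5 stood at 0.211 and 0.241 and Cd3e at 0.296 and 0.368. The replicate 2 sums of deep members leaned on 2 barcodes, of 143066 and 74322 UMIs, with 2615 and 1600 of 7785 deep Ccl5 UMIs. As a mean of per-cell levels, which weights cells equally, the shallow members were higher in both libraries, with Ccl5 at 0.938 against 0.104 of the free level in replicate 1 and 0.223 against 0.126 in replicate 2, and Cd3e at 1.14 against 0.181 and 0.331 against 0.154. Without the 8% deepest members, the Ccl5 ratio was 0.532 in replicate 1 and 0.119 in replicate 2. At least 50 Ccl5 UMIs were found in 37 of 130 members of replicate 1, 32 of them shallow, and in 13 of 75 of replicate 2, 12 of them deep.

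Deep members with under 50 Ccl5 UMIs, without shared copies, held few T cell transcripts. In these 23 and 46 cells Ccl5 was at 0.037 and 0.0416 of the free level, and Cd3e, with 33 and 53 UMIs, at 0.0747 and 0.0562. Cd3d, which encodes another subunit, stood at 0.237 (0.184 to 0.301) and 0.269 (0.229 to 0.313), with 68 and 165 UMIs, and Gzma, a granzyme gene, at 0.031 and 0.0326. Cd52, a gene of many leukocytes, stood at 1.18 and 1.27 of its free level. The low Ccl5 ratio follows from the choice of these cells, and the source of their T cell transcripts was not tested.

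Cd3d also outnumbered Cd3e cell by cell. It had more UMIs than Cd3e in 16 of 28 and 42 of 58 deep members, against 12.4% and 13.4% of T cells. On mm10, Cd3d lies at chr9:44981786-44987339 on the plus strand and Cd3e at chr9:44998740-45009627 on the minus strand.

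Deep members with a Cd3e UMI were higher than those without in most other T cell genes measured, which were a part of the genes called. With 12 and 16 cells in replicate 1 and 29 and 29 in replicate 2, edgeR called 55 of 1060 genes higher, or 5.19%, and 4 lower, or 0.377%. Of 7 T cell genes measured 5 rose, among them Trac by log2 3.09 ± 0.61 and Cd3g by 2.75 ± 0.43, whereas Cd3d had a difference of 0.57 ± 0.36 (adjusted p 0.454). All 5 T effector genes measured rose, with Gzma at 3.42 ± 0.39 and Ccl5 at 2.00 ± 0.36. Of 7 secondary granule genes measured 1 fell, Fcnb, by 2.25 ± 0.49 (adjusted p 2.7e-04), and of 4 transcription factor genes 1 fell, Cebpe, by 1.23 ± 0.37 (0.0206). Every Ccl5-high deep member was in the Cd3e class, 3 in replicate 1 and 7 in replicate 2, and their part in the result was not tested. Over all members at 1000 UMIs 7 of 628 genes were higher, or 1.11%, and 33 lower, or 5.25%, and 0 were called by edgeR with another random draw of the thinning or without shared copies, with 108 and 88 genes at an unadjusted p under 0.05 (DESeq2 called 5 over all members).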

How the data were processed

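Droplet 3′ expression libraries of 2 replicates were used. Per the submitters' processing notes, the authors used Cell Ranger 3.1.0 and mm10. The deposited values are UMI counts for each gene in each barcode, left unnormalized. The hashtag libraries were not used here. Cells were barcodes of 1000 UMIs and 500 genes or more whose mitochondrial share did not exceed 10%, and they held 71504017 and 79345397 UMIs.

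CPM are UMIs per 1000000 UMIs. Members were thinned to 1000 UMIs (seed 20), summed by class and library and tested with edgeR 4.0.16 (R 4.3.3; TMM, filterByExpr, library as block, Benjamini-Hochberg), with each class holding at least 10 cells per library. Rule genes were fitted but not called. The fit was also run on sums simulated from members thinned to 1000 UMIs, not from deep members. The outcome of that run is not given here. DESeq2 1.42.0 and other settings were alternatives. Intervals are exact binomial or Poisson at 95%. Gene positions are GENCODE's on mm10. Where the labels do not say that replicates are separate animals, p-values measure only the spread between these sums.

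Named split genes were the 10 largest rises and falls among called genes whose higher class reached 100 CPM in each library, with the classes in the same order; list genes could also be named. The members and lists were chosen with earlier results of these data known. The lines at 5000 UMIs, 10000 Ccl5 CPM, 50 Ccl5 UMIs and 1000 Retnlg CPM were chosen after seeing the data.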

Additional observations from a re-analysis of the deposited data

How the results depend on the processing

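Each number is a count of called genes or a ratio under the setting named. A minimum of 500 UMIs and 250 genes gave 207 members in replicate 1, and the other limits on members stayed within 1.5 times. The Ccl5 ratio to free RNA in replicate 1 was 0.338 with free RNA from barcodes under 50 UMIs, 0.314 with 4 rule genes, 0.532 without the 8% deepest members, 0.0906 in deep and 0.858 in shallow members; in replicate 2 it was 0.119 without the deepest and 0.211 in shallow members. The Cd3e ratio was 0.396, 0.666, 0.151 and 1.03 in replicate 1 with 4 rule genes, without the deepest, in deep and in shallow members, and 0.116 and 0.296 in replicate 2 without the deepest and in shallow members.

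The split by cycling genes called 49 genes. It called 0 with RLE factors, 0 without the replicate block, 3 with DESeq2 and 21 with no filter on low counts, against 587 with no thinning, 189 at 1500 UMIs and 170 in deep members, and 27 without Ccl5-high members. At an unadjusted p under 0.05, 76 genes passed with RLE factors and 50 without the block. The late split called 55 genes: 1 with RLE factors, 0 without the replicate block, 1 with DESeq2, 23 with another thinning seed, 0 with no thinning, 0 with 4 rule genes, 0 without shared copies, 6 without the deepest member of each library and 21 without Ccl5-high members. Where it called 0, between 41 and 88 genes had an unadjusted p under 0.05 (edgeR). The Cd3e split called 40 genes: 1 with no filter, 0 without the replicate block, 5 with DESeq2, 0 with another seed, 287 with no thinning, 105 at 1500 UMIs, 3 with 4 rule genes, 0 without shared copies and 0 without the deepest members. Where it called 0, between 78 and 108 genes had an unadjusted p under 0.05 (edgeR). Without Ccl5-high members its class with a Cd3e UMI held 9 cells in each library and it was not run.

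Gzma in the late split reversed to 0.268 with no thinning. Leaving out either library left 1 sum against 1 and no test, and the sign in each library was fixed by how the named genes were chosen. The block was the library, which pairs the classes by construction. The cause of these changes was not tested. The splits of deep members, by cycling genes and by Cd3e, were fitted with the main edgeR settings only. Depth limits low genes: thinning to 1000 UMIs left Retnlg in 16 and 35 members of 29 and 53.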
